A study of Mus musculus with 6 samples.

Results

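The genes described here are 10 that prepare and display peptides on MHC class I in the mouse, H2-K1, H2-D1, B2m, Tap1, Tap2, Tapbp, Psmb8, Psmb9, Psmb10 and Nlrc5. They were chosen by name as a pathway, and are 10 of the 24421 gene symbols in the deposited count table. All 10 passed the filter on low counts and are also among the 24346 symbols of the FPKM table. RNA-seq was performed on endothelial cells (ECs) sorted by FACS as CD31+CD45- from the livers of wild-type (WT) C57BL/6J female mice. The young group held 3 samples from mice aged 10 weeks, and the aged group held 1 sample each from mice aged 127, 131 and 136 weeks. The study compared the groups to find what changes in the transcriptome of liver ECs with age. The labels name no transgene and no treatment. How many mice went into each sample is not given in the sources used here, and p-values therefore measure the spread between these samples.

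Nearly all nucleated cells display MHC class I on their surface. Proteasomes cut cytosolic proteins into peptides, the TAP transporter carries these into the endoplasmic reticulum, and tapasin helps to load them onto a heavy chain paired with β2-microglobulin. CD8+ T cells read the loaded complex, and NK cells sense its loss. Interferon-γ raises transcription across the pathway through IRF1, and through NLRC5, a transactivator that acts on class I promoters as CIITA does on those of class II. It also replaces the 3 catalytic subunits of the standard proteasome by inducible ones, which gives the immunoproteasome. Sinusoidal ECs of the liver take up antigen from blood and can present it on class I to CD8+ T cells that pass through the organ.

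Of the 10 genes, 7 lie on chromosome 17 within 1351601 bp of the mm9 genome (NCBIM37), in the order Tapbp, H2-K1, Psmb9, Tap1, Psmb8, Tap2 and H2-D1. B2m lies on chromosome 2 (121973422 to 121978819, plus strand), and Psmb10 (108459628 to 108462292, minus strand) and Nlrc5 (96996663 to 97051172, plus strand) lie on chromosome 8. Psmb9, Tap1, Psmb8 and Tap2 lie within 34335 bp, together with 2 other genes annotated as coding, Gm20496 and Gm15821. Upstream of them lie Tapbp (34052844 to 34066235, plus strand) and H2-K1 (34132962 to 34137278, minus strand), and H2-D1 (35399675 to 35404444, plus strand) follows at the far end. Psmb9 (34318932 to 34324697) and Tap1 (34324498 to 34334170) are read in opposite directions from starts only 199 bp apart, so that the annotated ends of the genes overlap. The annotation holds another coding entry named Psmb9 (34318933 to 34324709), which was not used for this distance. How the counting treated strand is not given in the sources used here, and reads in that overlap cannot be assigned to one gene with certainty.

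Class I promoters are known for a fixed arrangement of short elements, and the elements of the 3 genes whose products form the displayed complex are shown here because NLRC5 and interferon signals are known to act through elements of this kind. Promoters of RefSeq (GRCm38.p6, 250 bases before to 50 after the start) were at hand for 8 of the 10 genes, and each matched mm9 exactly at 1 place. The first set runs 5′ to 3′ with the half-site of the cAMP response element (TGACG) and the NF-Y box read in reverse (ATTGG) in capitals.

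B2m, chr2:121973345-121973374, plus strand: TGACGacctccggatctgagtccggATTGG
H2-K1, chr17:34137304-34137333, minus strand: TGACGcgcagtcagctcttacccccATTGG
H2-D1, chr17:35399938-35399967, plus strand: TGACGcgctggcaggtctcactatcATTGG

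In all 3 windows the elements began exactly 25 bases apart. This spacing was picked after these promoters had been read, and it occurs in 31 of 32851 promoters (0.0944%), which belong to 27 genes. The windows of H2-K1 and H2-D1 had the same base at 23 of 30 positions, whereas B2m shared 13 with H2-K1 and 12 with H2-D1, including the 10 in capitals that define the set. The remaining windows are shown because interferon and NF-κB signals are known to act through elements of this kind, with the match in capitals. Whether they act through these matches was not tested.

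H2-K1, NF-κB, chr17:34137385-34137413, minus strand: gcccagggctGGGGATTCCccatctccac
H2-D1, NF-κB, chr17:35399858-35399886, plus strand: gcccagggctGGGGATTCCccatctcctc
B2m, interferon-stimulated response element, chr2:121973274-121973302, plus strand: ataagaacatGAAACTGAAaatgggaaag
Psmb8, gamma-activated site, chr17:34335033-34335061, plus strand: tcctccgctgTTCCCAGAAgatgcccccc

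The NF-κB windows of the heavy chains differ by a single substitution, A28T, counted from 1 at the 5′ end of the H2-K1 window. GGGNNTTCC, searched on both strands, was found in H2-K1 and H2-D1 and in 5.82% of all promoters. GAAANNGAA was found in B2m alone among the 8 genes (8.56% of all promoters), and TTCNNNGAA in Psmb8 alone (8.3%). CCAAT was present in 6 genes, H2-K1, H2-D1, B2m, Tap1, Tapbp and Psmb9, against 37.4% of all promoters, and TGACG in 5 of these 6, all but Tapbp, against 20.8%. The promoters of Tap1 (34324251 to 34324550) and Psmb9 (34324226 to 34324525) overlap. For both motifs, the match in Tap1 and that in Psmb9 are the same bases, counted here for each gene. A match gives the letters only and is not a bound site. The windows of B2m and H2-K1 lie upstream of the annotated genes. Those of H2-D1 lie inside the annotated gene (35399675 to 35404444), and so does that of Psmb8 (34334666 to 34338399), since their RefSeq starts are further downstream.

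The 6 libraries held 23001556 to 31651817 counts, and no pair of replicates was alike within sampling noise. The CD31 gene Pecam1 had 1369 to 1589 CPM (counts scaled by library size and TMM factor) in young and 1366 to 1635 CPM in aged samples. Of 7 endothelial markers, 4 were lower in all 3 aged samples (8.33% of all genes), Kdr, Tek and the sinusoidal receptor genes Stab2 and Clec4g. Cdh5 overlapped between the ages. The 7 summed to 13655 to 15120 CPM in young and 7575, 10453 and 7181 CPM at 127, 131 and 136 weeks. Stab2 had 2902 to 3199 CPM in young and 504, 1760 and 542 CPM in aged samples in that order. Lyve1, another sinusoidal receptor gene, had 391 to 671 CPM in young and 661, 223 and 1506 CPM in aged samples. Reads of Lars2 and Rn45s, which contain ribosomal RNA sequence, made up 4.68 to 5.53% of counts in young 1, young 2 and the 131- and 136-week samples, but 1.29% in young 3 and 0.960% in the 127-week sample. In bulk samples, fewer cells of a type and less RNA per cell cannot be told apart.

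Levels of different genes were compared by FPKM, which is corrected for length. The components of the displayed complex were among the most abundant transcripts of liver ECs. B2m had a mean of 5003 FPKM over the 6 samples and ranked 4 of 24346, H2-D1 had 3569 FPKM (rank 7) and H2-K1 had 1721 FPKM (rank 28). By counts, without correction for length, H2-D1 was the lower of the heavy chains, with a young mean of 2041 CPM against 2523 CPM. The lengths behind the FPKM values are not given in the sources used here, and the rank of H2-D1 rests on them. Below them lay Tapbp with 273 FPKM, Psmb8 with 223, Psmb9 with 154, Tap2 with 137, Psmb10 with 111 and Tap1 with 63.3. Nlrc5 was lowest, at 3.23 FPKM (rank 9384). In this order only H2-K1 over Tapbp and Tap1 over Nlrc5 were separated in all 6 samples. All other neighbours overlapped, but among the young samples alone only Psmb9 with Tap2 and Tap2 with Psmb10 did so. The 10 genes together took 0.896 to 1.00% of all counts in young samples, and 1.21, 0.631 and 1.12% in the 127-, 131- and 136-week samples.

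**Figure D1:**
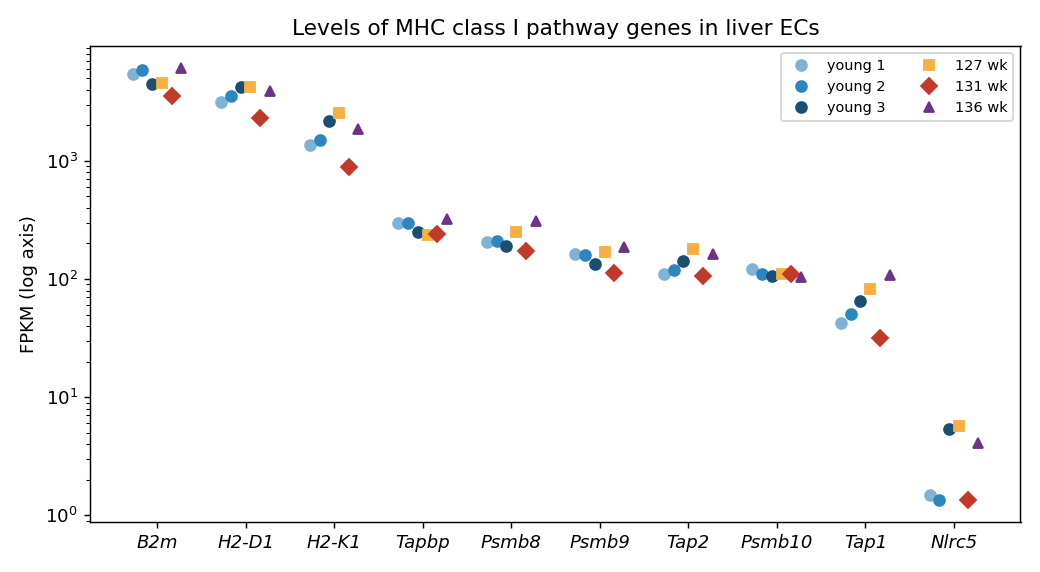
FPKM (log axis) of the 10 MHC class I pathway genes in liver ECs, ordered by mean level, with 1 point per sample (circles young, square 127 weeks, diamond 131 weeks, triangle 136 weeks). B2m, H2-D1 and H2-K1 lie above the other genes and Nlrc5 below them, and the 131-week sample is the lowest point for most genes.

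None of the 10 genes passed the test between aged and young ECs, and their estimates lay on both sides of 0. By the edgeR quasi-likelihood test with Benjamini-Hochberg adjustment over 14612 genes, 0 of 10 had an adjusted p under 0.05, and 0 of 10 had an unadjusted p under 0.05. DESeq2, limma-voom with sample quality weights and limma on FPKM also called 0 of 10. The background was low in edgeR as well, with 0 of all genes past the threshold (0%), 8.32% higher and 4.32% lower in aged ECs at an unadjusted p under 0.05, whereas DESeq2 called 3.37% of genes higher and 1.05% lower. The log2 fold change was above 0 for 6 of the 10 genes, with a background of 51.1%, and the median was 0.069 against 0.0098 over all genes. None of the 10 separated the ages without overlap, against 9.62% of all genes with every aged sample above every young sample and 8.33% with every aged sample below.

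**Figure D2:**
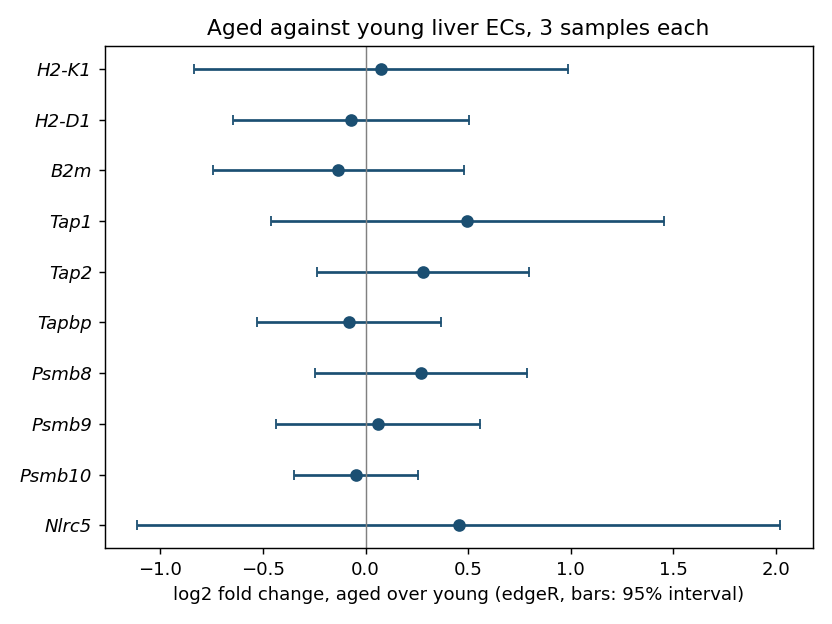
Log2 fold change, aged over young, of each MHC class I pathway gene by edgeR, with bars for the 95% interval (3 samples per group). All 10 intervals contain 0, and the interval is narrowest for Psmb10 and widest for Nlrc5.

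The heavy chains and their partner β2-microglobulin came out near 0 on the log2 scale between the ages, with the 131-week sample at the bottom. H2-K1, the heavy chain of H-2K, had 2077, 2246 and 3245 CPM in young samples and 3831, 1338 and 2807 CPM in the 127-, 131- and 136-week samples. The 127-week sample was the highest and the 131-week sample the lowest of all 6, so that the young values lay inside the aged range. Its log2 fold change was 0.08 (SE 0.39, 95% interval -0.83 to 0.99, adjusted p = 0.964). H2-D1, the heavy chain of H-2D, had 1839, 2088 and 2195 CPM in young and 2226, 1341 and 2262 CPM in aged samples in the same order. Here the 127- and 136-week samples lay just above the highest young sample and the 131-week sample below the lowest. The log2 fold change of H2-D1 was -0.07 (SE 0.25, 95% interval -0.64 to 0.50, adjusted p = 0.947). B2m, the invariant light chain, had 3671, 3946 and 2955 CPM in young and 3044, 2409 and 4196 CPM in aged samples. Only the 131-week sample fell below the young range and only the 136-week sample above it, with a log2 fold change of -0.13 (SE 0.26, 95% interval -0.74 to 0.48, adjusted p = 0.893).

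The balance of the heavy chains was also compared within samples. The FPKM ratio of H2-D1 to H2-K1 was 2.31, 2.39 and 1.95 in young and 1.67, 2.60 and 2.09 in aged samples, means of 2.21 ± 0.24 and 2.12 ± 0.46 (SD, n = 3 each; two-sided exact permutation test, p = 0.8, where 0.1 is the smallest p that 3 against 3 samples allow). The 131-week sample had the highest and the 127-week sample the lowest ratio of the 6. This ratio holds for FPKM only. In CPM, which is not corrected for length, the aged means were 1943 for H2-D1 and 2659 for H2-K1. Whether the count table leaves out reads of H2-D1 was not tested, and its fold change from counts carries the same limit. The heavy chains belong to a family of similar genes. Of all 75-base stretches of the annotated coding transcripts, the length of the reads, 5.56% in H2-D1 and 1.22% in H2-K1 also occur in another gene, most often H2-Q2 for H2-D1 and H2-D1 for H2-K1. The other 7 coding genes of the set shared none with a gene of another symbol. Stretches shared between the Psmb9 entries of the annotation could not be counted, because they carry the same symbol.

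Of the genes of peptide transport and loading, Tap1 and Tap2 had aged samples on both sides of the young range. Tap1, which with Tap2 forms the peptide transporter of the endoplasmic reticulum, had 122, 143 and 185 CPM in young samples. In aged samples it had 237 CPM at 127 weeks, 91.9 CPM at 131 weeks and 308 CPM at 136 weeks. The 127- and 136-week samples were above every young sample and the 131-week sample was below every young sample. Its log2 fold change was 0.50, with an error of similar size (SE 0.41, 95% interval -0.46 to 1.45, adjusted p = 0.680). Tap2 had 262, 285 and 334 CPM in young and 423, 256 and 391 CPM in aged samples. It followed the order of Tap1, except that the 127-week sample was highest and the 131-week sample only just below the young range. The log2 fold change of Tap2 was 0.28 (SE 0.22, 95% interval -0.24 to 0.80, adjusted p = 0.663). Tapbp encodes tapasin, which holds empty class I molecules at the transporter until peptide is bound. It had 780, 789 and 647 CPM in young and 612, 637 and 846 CPM in aged samples, so that the 127- and 131-week samples were lowest and the 136-week sample highest, with a log2 fold change of -0.08 (SE 0.19, 95% interval -0.53 to 0.37, adjusted p = 0.918).

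The ratio of Tap1 to Tap2 in FPKM was 0.386, 0.419 and 0.457 in young and 0.460, 0.296 and 0.654 in aged samples. The young samples stayed close together, and the 131- and 136-week samples gave the lowest and the highest value of all 6 (0.421 ± 0.036 against 0.470 ± 0.179, SD, n = 3 each, exact permutation test, p = 0.7). The neighbours Tap1 and Psmb9, which share the stretch between their starts, had an FPKM ratio of 0.356 ± 0.118 in young and 0.449 ± 0.149 in aged samples (SD, n = 3 each, exact permutation test, p = 0.5). These p-values were not adjusted, and with that of B2m to H2-K1 (3.30 ± 1.07 against 3.05 ± 1.14, SD, n = 3 each, exact permutation test, p = 0.7) they make 4 ratios in all.

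The inducible subunits of the proteasome overlapped between the ages, Psmb8 and Psmb9 with wide and Psmb10 with close aged values. Psmb8, the inducible form of the chymotrypsin-like subunit, had 217, 222 and 198 CPM in young and 262, 181 and 325 CPM in aged samples. The young samples differed little, the 127- and 136-week samples were above them and the 131-week sample below, with a log2 fold change of 0.27 (SE 0.22, 95% interval -0.25 to 0.79, adjusted p = 0.679). Psmb9, the inducible form of the caspase-like subunit, had 107, 105 and 89.5 CPM in young and 116, 74.6 and 125 CPM in aged samples. As with Psmb8, the 127- and 136-week samples were above and the 131-week sample below all young samples. Its log2 fold change was 0.06 (SE 0.21, 95% interval -0.43 to 0.56, adjusted p = 0.947). Psmb10, the inducible form of the trypsin-like subunit, had 136, 122 and 115 CPM in young and 122, 123 and 116 CPM in aged samples. All 3 aged values lay inside the young range, and the log2 fold change of -0.05 had the narrowest interval of the 10 genes (SE 0.13, 95% interval -0.35 to 0.25, adjusted p = 0.930).

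Each inducible subunit competes with a constitutive one for its place in the ring, so the share of the inducible form in the FPKM of each pair was computed. Psmb8 made up 59.5, 58.9 and 61.1% of Psmb8 plus Psmb5 in young samples, and 67.8, 58.0 and 73.7% in the 127-, 131- and 136-week samples. The share was above the young range in 2 aged samples and just below it in the 131-week sample (59.8 ± 1.13% against 66.5 ± 7.92%, SD, n = 3 each, exact permutation test, p = 0.4). Psmb9 made up 45.7, 45.6 and 45.6% of Psmb9 plus Psmb6 in young samples, and 53.8, 38.6 and 52.2% in aged samples. The young shares were nearly identical, whereas the aged shares fell on both sides of them (45.6 ± 0.033% against 48.2 ± 8.35%, SD, n = 3 each, exact permutation test, p = 0.7). Psmb10 made up 61.7, 61.5 and 68.4% of Psmb10 plus Psmb7 in young samples and 71.2, 62.3 and 59.8% in aged samples. In this pair the high shares were those of young 3 and the 127-week sample, the libraries with the smaller share of ribosomal RNA reads, which also had the lowest Psmb7 FPKM (63.9 ± 3.95% against 64.4 ± 5.98%, SD, n = 3 each, exact permutation test, p = 0.8). After adjustment over the 3 pairs all p-values were 0.8.

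**Figure D3:**
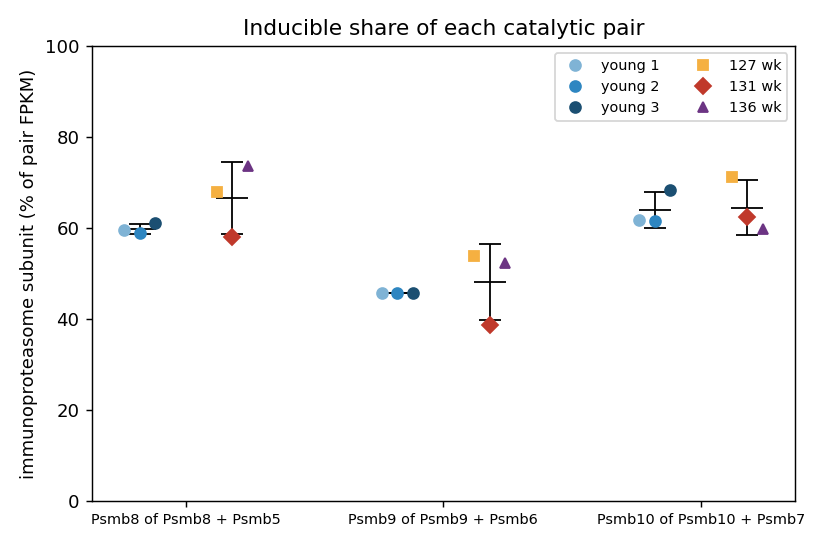
Share of the inducible subunit in the summed FPKM of each catalytic pair (percent), with 1 point per sample, and the mean and SD (bars) of 3 young and 3 aged samples. In the pairs of Psmb8 and Psmb9 the young points lie close together, with the 127- and 136-week samples above them and the 131-week sample below.

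The transactivator Nlrc5 varied as much among young as among aged samples. It had 10.8, 9.97 and 39.6 CPM in young and 42.8, 10.1 and 29.9 CPM in the 127-, 131- and 136-week samples. Young 3, the 127-week sample and the 136-week sample were high, while young 1, young 2 and the 131-week sample were near 10 CPM. The log2 fold change was 0.45 with the largest error of the 10 genes (SE 0.67, 95% interval -1.11 to 2.02, adjusted p = 0.847). The mm9 annotation at hand lists Nlrc5 as a noncoding RNA gene, so that its shared stretches were not analysed here.

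The aged samples stood apart from one another, with the 131-week sample low and the others mostly high. In the 131-week sample all 10 genes were below the mean of the young samples, with a background of 53.2% of all genes, and 8 were below every young sample (background 25.1%), the exceptions being Psmb10 and Nlrc5. The 131-week sample was the lowest of the 6 for 7 genes (background 12.7%), H2-K1, H2-D1, B2m, Tap1, Tap2, Psmb8 and Psmb9. For all 7 the 127- or the 136-week sample was the highest, which held for 6.44% of all genes. The 136-week sample ranked first for 6 genes (background 25.7%), and the 131-week sample was above every young sample for 0 of 10 (background 26.0%). The 127-week sample was above every young sample for 7 genes (background 30.5%), and so was the 136-week sample (background 34.1%). For H2-D1, Tap1, Tap2, Psmb8 and Psmb9 the 131-week sample was below and both other aged samples were above all young samples, an arrangement found in 2.60% of all genes. These counts describe 3 single samples, were looked at after the values were known, and carry no test.

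On the scale of log2(CPM + 1) minus the young mean, the median of the 10 genes was -0.06, 0.01 and 0.00 in the young samples. It was 0.26 at 127 weeks, -0.48 at 131 weeks and 0.28 at 136 weeks. In the 131-week sample the difference was -0.89 for H2-K1, -0.68 for Tap1, -0.60 for H2-D1 and -0.54 for B2m, but -0.01 for Psmb10. In the 136-week sample it was 1.05 for Tap1 and 0.61 for Psmb8, and in the 127-week sample it was 0.67 for Tap1, 0.63 for H2-K1 and 0.53 for Tap2, but -0.27 for Tapbp and -0.20 for B2m. Nlrc5 differed by 1.33, -0.65 and 0.83 at 127, 131 and 136 weeks. The SD of log2(CPM + 1) was larger among aged than among young samples for 8 of the 10 genes (background 60.7%), as with Tap1 (0.91 against 0.30) and Psmb8 (0.43 against 0.09). Psmb10 (0.05 against 0.12) and Nlrc5 (1.03 against 1.06) were the exceptions.

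**Figure D4:**
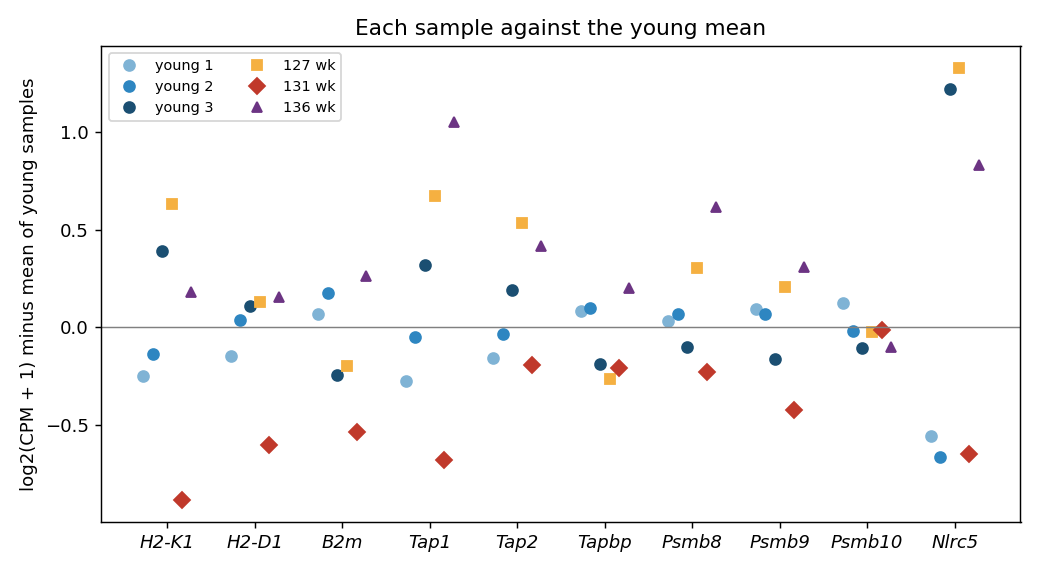
Difference of each sample from the mean of the 3 young samples in log2(CPM + 1), for each MHC class I pathway gene. The 131-week diamond is below 0 for all 10 genes, by 0.89 for H2-K1 and 0.01 for Psmb10, while the 127-week squares and 136-week triangles are mostly above 0.

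Without the 131-week sample, the median log2 fold change of the 10 genes was 0.33, against 0.013 over all genes. All 10 genes were below the young mean in that sample, so higher estimates without it follow largely from the choice of sample. Tap1 then had a log2 fold change of 0.86 (adjusted p = 0.140), Psmb8 of 0.47 (adjusted p = 0.225) and Tap2 of 0.47 (adjusted p = 0.234). These 3 of the 10 genes were higher at an unadjusted p under 0.05 by edgeR without that sample, with a background of 10.6% of all genes, and 0 passed after adjustment. The median was -0.0095 without the 127-week and 0.0085 without the 136-week sample. In both of these fits 0 of the 10 genes had an unadjusted p under 0.05 by edgeR. Of all genes, 1600 of 14469 and 1112 of 14302 did so, counting either direction. Within the 4 libraries with the larger share of ribosomal RNA reads, the 10 genes had a median difference of -0.10 in log2(CPM + 1). The median over all genes was 0.011 there, and the 10 genes ranged from -0.26 to 0.70, aged minus young. Between young 3 and the 127-week sample, the libraries with the smaller share, the median was 0.17, against 0.0037 over all genes. Here each age had 1 sample, and the 10 genes ranged from -0.080 to 0.41. The mean of Tap1, Tap2 and Psmb8 was higher in aged ECs in both sets, by 0.34 and 0.35, 0.21 and 0.34, and 0.14 and 0.41, but in the first set the 131-week sample was below both young samples for all 3 genes and only the 136-week sample was above them. H2-K1 was -0.16 and 0.24, and Nlrc5 was 0.70 and 0.11.

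Markers of leukocytes, which also express class I genes, differed among the aged samples. The summed CPM of 6 pan-leukocyte markers was 97.1 to 101 in young samples and 103, 99.4 and 330 in the 127-, 131- and 136-week samples. Most of this sum was Lcp1 in every sample but that of 136 weeks. Lcp1 was also the only one of the 6 to be lower at 127 weeks than in all young samples. Without it, the other 5 summed to 13.3 to 21.7 CPM in young samples and to 43.7, 15.7 and 174 CPM in aged samples. The summed CPM of 6 T and NK cell markers was 0.158 to 0.677 in young and 5.02, 0.311 and 20.4 in aged samples. For 7 Kupffer cell, myeloid and dendritic cell markers it was 34.8 to 77.6 in young and 176, 29.5 and 452 in aged samples. Ptprc, which encodes the CD45 that the sort selected against, had 1.56, 1.17 and 1.70 CPM in young and 7.57, 1.28 and 25.6 CPM in aged samples. The 131-week sample was inside or below the young range in the sums of these 3 lists. It was above every young sample for 1 of the 6 T and NK cell markers and 1 of the 6 pan-leukocyte markers. It was also the lowest sample for 7 of the 10 class I genes. The 127- and 136-week samples had more of these markers and were the samples in which Tap1, Tap2, Psmb8, Psmb9 and H2-D1 were above all young samples. The part of leukocyte RNA in these differences was not tested.

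Of 13 listed factors that act on class I promoters, 2 were higher in all aged than in all young samples, against 9.62% of all genes. These were Irf1 and Nfyb, a subunit of NF-Y. Irf1, an interferon-induced activator that binds the response element, had 599, 629 and 1007 CPM in young and 1882, 1447 and 2935 CPM in the 127-, 131- and 136-week samples. All aged samples were above all young samples, the 131-week sample included. The log2 fold change of Irf1 was 1.49 (SE 0.33, 95% interval 0.71 to 2.26, unadjusted p = 0.00251), which missed the threshold in edgeR (adjusted p = 0.232) and passed it in DESeq2 (adjusted p = 0.000897). Within the libraries with more and with less ribosomal RNA reads it was 1.75 and 0.90 higher in aged ECs in log2(CPM + 1). Irf2, a repressor at the same element as Irf1, had a log2 fold change of -0.35 (SE 0.21, adjusted p = 0.551), and Rela, the p65 subunit of NF-κB, of 0.32 (SE 0.21, adjusted p = 0.580). Nfyb had a log2 fold change of 0.20 (adjusted p = 0.650). Over all 13 factors on the list, 8 were above and 5 below 0 with a median log2 fold change of 0.20, 1 passed an unadjusted p of 0.05 (Irf1) and 0 passed after adjustment in edgeR.

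**Figure D5:**
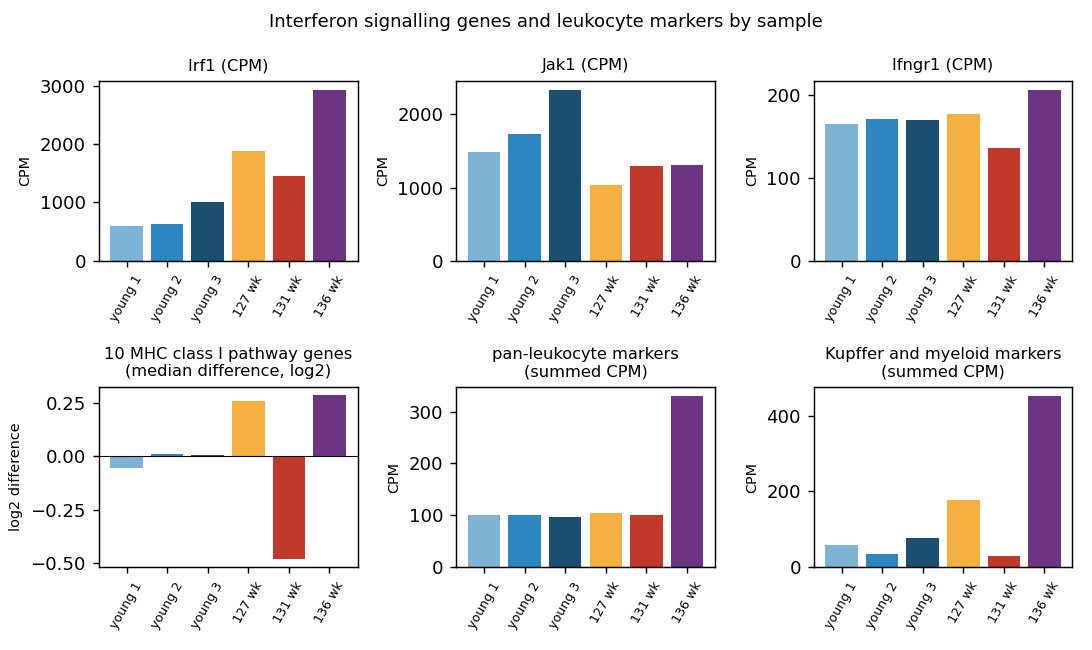
CPM of Irf1, Jak1 and Ifngr1, the median difference of the 10 MHC class I pathway genes from the young mean in log2(CPM + 1), and the summed CPM of pan-leukocyte and of Kupffer and myeloid markers, 1 bar per sample. Irf1 is higher and Jak1 lower in all 3 aged samples, whereas Ifngr1 and the class I genes are lowest in the 131-week sample and the leukocyte markers are highest in the 136-week sample.

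Upstream, Ifngr1, the ligand-binding chain of the interferon-γ receptor, had 165, 170 and 170 CPM in young and 177, 136 and 207 CPM in aged samples, with a log2 fold change of 0.04 (SE 0.18, adjusted p = 0.957). Jak1, the kinase that interferon receptors share, had 1484, 1729 and 2339 CPM in young and 1041, 1288 and 1312 CPM in aged samples. All aged samples were lower, but Jak1 did not pass the test (log2 fold change -0.61, SE 0.23, adjusted p = 0.350 in edgeR and 0.113 in DESeq2). Ifngr2, the signalling chain of the same receptor, had a log2 fold change of -0.40 (SE 0.24, adjusted p = 0.552). Of Ifng itself, the 127-week library held 6 counts and the 136-week library 16, and the remaining 4 libraries held 0. Of 8 receptor and ligand genes tested out of 9 listed, 3 were above and 5 below 0, with a median log2 fold change of -0.02 and 0 past the threshold.

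The other genes of the pathway gave no call in edgeR either. Of 23 nonclassical class I genes 12 were tested, 9 were above 0 and 3 below, with a median log2 fold change of 0.29. The 11 others did not pass the filter on counts, but 5 of them, H2-Q6, H2-Q7, H2-Q8, H2-Q9 and H2-T9, had at most 1 count in any library and yet 28.0 to 419 FPKM, so that the count table leaves out reads that the FPKM table assigns to them. H2-Q7, the highest of these, had 174, 214 and 245 FPKM in young samples. At 127, 131 and 136 weeks it had 364, 115 and 419 FPKM, above the young range except at 131 weeks, where it was below. H2-T22, one of the 12 genes tested, had only 3 to 28 counts per library but 15.6 to 39.2 FPKM. Its estimate, which enters the median above, therefore rests on counts that leave out reads too. H2-T24 was the only one of the 12 with an unadjusted p under 0.05. It had 66.9, 59.3 and 87.0 CPM in young and 49.0, 32.3 and 43.8 CPM in aged samples, all aged samples being lower (log2 fold change -0.77, SE 0.21, adjusted p = 0.256), and it passed the threshold in DESeq2 (adjusted p = 0.0443). Mr1, which presents vitamin B metabolites, had a log2 fold change of 0.34 (SE 0.17, adjusted p = 0.464). Cd1d1, which presents lipids to NKT cells, had 8.45, 7.40 and 9.84 CPM in young and 12.3, 10.3 and 10.2 CPM in aged samples. All aged samples were higher, with a log2 fold change of 0.35 (SE 0.21, adjusted p = 0.553). H2-Q4, picked after its values were seen, was arranged like Tap1, with 162, 70.1 and 217 CPM in aged against 97.1 to 116 CPM in young samples.

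Among 6 loading and trimming partners in the endoplasmic reticulum, 5 were below 0 and 1 above, with a median log2 fold change of -0.20. The chaperone genes Calr (-0.39, SE 0.23, adjusted p = 0.535), Pdia3 (-0.41, SE 0.24, adjusted p = 0.545) and Canx (-0.29, SE 0.21, adjusted p = 0.632), which fold class I with peptide but also many other proteins, overlapped between the ages. Erap1, Lnpep and Tapbpl were between -0.12 and 0.05. The constitutive catalytic subunits Psmb5 (-0.24, SE 0.14), Psmb6 (-0.12, SE 0.15) and Psmb7 (-0.09, SE 0.24) were all below 0 and none passed the test. For the 11 noncatalytic subunits of the 20S core the median log2 fold change was -0.01, with 4 above and 7 below 0. Psma5 (-0.17, adjusted p = 0.649), Psma3 (0.17, adjusted p = 0.735) and Psma7 (0.12, adjusted p = 0.800) had the smallest p-values of these. For 5 genes of proteasome caps and assembly it was 0.01. Of these, Psme1, a subunit of the interferon-induced cap PA28, had a log2 fold change of 0.10 (SE 0.16).

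The genes whose profile over the 6 samples was most like the median of the 10 class I genes were Samd9l, Il18bp, Mest, Ifngr1 and Trim30a, out of 8903 genes with a mean of at least 10 CPM. Their mean absolute difference from that profile was 0.039, 0.041, 0.058, 0.069 and 0.071 in log2(CPM + 1). Trim30a was no longer among the 5 nearest with a pseudocount of 0.1 or with genes of a mean of at least 1 CPM, whereas the other 4 stayed. Samd9l and Trim30a are known as interferon-induced genes and Il18bp encodes a soluble inhibitor of interleukin-18, while Mest is an imprinted gene. Samd9l had 95.2, 98.4 and 96.5 CPM in young and 117 and 127 CPM in the 127- and 136-week samples, and was lowest in the 131-week sample. The likeness rests on 6 samples, with all genes read from the same libraries, and is given as a description.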

How the data were processed

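RNA-seq was performed on 3 young and 3 aged liver EC samples with 75-base single-end reads. Per the labels and methods, the authors called bases with CASAVA 1.8.2, mapped reads to mm9 with TopHat2 2.1.0 and made FPKM values with Cuffnorm 2.2.1. The authors deposited raw counts per gene symbol and FPKM normalised between samples. The counting program, annotation and strand setting are not given in the sources used here.

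Counts were analysed with edgeR 4.0.16 (R 4.3.3), with TMM factors and the quasi-likelihood test without covariates, on the 14612 genes that reached 0.5 CPM in 1 or more samples. P-values were adjusted by the Benjamini-Hochberg method over all genes tested, with a threshold of 0.05. DESeq2 1.42.0 and limma 3.58.1 were alternatives. Shares and ratios of FPKM were compared by two-sided exact permutation tests. A count of 3 in a library was 0.0948 to 0.130 CPM. The scripts were tested on simulated data.

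All 10 members are named. Of the other pathway lists, any gene of a list of up to 6 genes could be named, and of longer lists the 3 genes with the smallest p, Irf1 and any gene a result turns on. Some genes of the lists are not reported here. The members and lists were chosen with earlier results of these data known. The counts for the 131-week sample under other scalings and the leukocyte sum without Lcp1 were added after the data were seen.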

Additional observations from a re-analysis of the deposited data

How the results depend on the processing

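No paired analysis was made, because no label pairs a young with an aged sample and the study describes the samples of each group as independent. The number of the 10 class I genes past the threshold was 0 under all 16 alternatives, whereas the number of all genes past it was 4 without a low-count filter, 630 with DESeq2, 15 with limma-voom and sample quality weights, 1 with limma on log2(FPKM + 0.1), 2 with a term for the ribosomal RNA share, and 0 to 1 when each sample was left out. The median log2 fold change of the 10 genes was 0.069, but 0.15 with library totals, when the median over all genes rose to 0.075, and -0.011 with limma on log2(FPKM + 0.1) as on log2(FPKM + 1). Leaving out each sample gave -0.0095 to 0.33, being -0.0095 without the 127-week, 0.33 without the 131-week and 0.0085 without the 136-week sample. Tap1, Tap2 and Psmb8 stayed above 0 in all 16. Direction turned with library totals for H2-D1 (0.0022) and Psmb10 (0.018), with weighted limma-voom for Psmb9 (-0.046), and with FPKM for H2-K1 (-0.034 at both pseudocounts). It also turned when single samples were left out for H2-K1 (-0.28 to 0.40), H2-D1 (-0.19 to 0.14), B2m (-0.37 to 0.039), Tapbp (-0.24 to 0.010), Psmb9 (-0.077 to 0.26), Psmb10 (-0.10 to 0.019) and Nlrc5 (-0.0073 to 1.41). The lowest adjusted p of any of the 10 was 0.140, for Tap1 without the 131-week sample. The difference in share, aged minus young, ranged over the samples left out from 3.12 to 10.95 points for Psmb8, -0.26 to 7.33 for Psmb9 and -2.78 to 2.91 for Psmb10. All 10 genes were below the young mean in the 131-week sample under each scaling, and 9 without young 1. The cause of these changes was not tested. With 3 samples per age the 95% intervals of Tap1 and Nlrc5 reached past 1 log2 unit, whereas that of Psmb10 ended at -0.35 and 0.25.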
